A study of Homo sapiens with 6 samples.

Results

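Expression of 10 genes of amino acid synthesis, amino acid transport and the response to amino acid shortage was followed in TT cells, a human medullary thyroid carcinoma cell line, after treatment with either of 2 inhibitors of focal adhesion kinase (FAK). The genes were taken as a named list: ASNS, PSAT1, PHGDH, PSPH, SHMT2, MTHFD2, SLC7A5, SLC3A2, STC2 and SESN2. They were 10 of 20045 genes on the chip, read by 14 of 30111 probes that were assigned to 1 gene, and all 10 were among the 11388 genes tested. RNA was measured on 6 Illumina bead arrays, 2 from untreated plates, 2 from plates given Y15 at 10 µM and 2 from plates given PF04554878 at 10 µM, each for a day. Y15 is a small molecule directed at the autophosphorylation site of FAK and was dissolved in PBS, whereas PF04554878 (defactinib) is an inhibitor of the kinase activity of FAK and was dissolved in DMSO. No vehicle was named for the untreated plates, so compound and solvent cannot be told apart. All plates were of the same line, and the labels name no genetic change and no other agent. The p-values measure the spread between duplicate plates of 1 line. In bulk RNA, fewer cells of a kind and less RNA per cell cannot be told apart.

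Asparagine synthetase (ASNS) makes asparagine from aspartate and glutamine. PHGDH, PSAT1 and PSPH catalyse the consecutive steps from a glycolytic intermediate to serine, and SHMT2 and MTHFD2 carry the serine carbon into folate metabolism inside mitochondria. SLC7A5 and SLC3A2 are the light and the heavy chain of an exchanger at the cell surface that brings in leucine and other large neutral amino acids. Many of these genes are known targets of ATF4, a transcription factor whose translation rises when eIF2 is phosphorylated by stress kinases such as the amino acid sensor GCN2. STC2, a secreted glycoprotein, and SESN2, a leucine-binding inhibitor of mTORC1 signalling, are known stress-responsive genes as well. ATF4 binds together with C/EBP family partners at composite C/EBP-ATF response elements, which are best known from ASNS.

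Because the promoter of ASNS carries the textbook element, RefSeq promoter windows of the 10 genes (GRCh38.p14, 250 bases before to 50 bases after each start) were searched on both strands for TGATGNAAN, where N is any base. The promoter table held 8 of the 10 genes, in 11 windows. A match was found in 2 of the 11 windows (18.2%) and 2 of the 8 genes (25%), against 1268 of all 35116 windows (3.61%) and 1215 of all 27305 genes (4.45%). The element was chosen because ASNS carries it, so the ASNS match was fixed in advance and these shares measure no enrichment. In ASNS the match began 68 bases before 1 of its annotated starts and read TGATGAAAC on the strand of the gene. The window of the other ASNS start held no match. In SLC3A2 it lay 36 bases after 1 of 3 annotated starts and on the opposite strand, so that the strand of the gene read CTTACATCA. Both stretches are shown 5′ to 3′ on the strand of the gene, with the match in capitals; ASNS lies on the minus strand at chr7:97872409-97872658 and SLC3A2 on the plus strand at chr11:62881724-62881748.
ASNS: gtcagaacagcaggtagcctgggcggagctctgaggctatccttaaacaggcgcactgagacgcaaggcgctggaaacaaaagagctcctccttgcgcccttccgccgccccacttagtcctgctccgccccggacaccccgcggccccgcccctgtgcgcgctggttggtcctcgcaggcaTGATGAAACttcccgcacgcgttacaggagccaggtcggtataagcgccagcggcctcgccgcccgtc
SLC3A2: gtgcaggactcCTTACATCAgctcc

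A match is a description of letters and not of binding, which was not measured. No match was found in the windows of PSAT1, PHGDH, MTHFD2, SLC7A5, STC2 or SESN2, and ATF4 elements in introns or farther upstream lie outside these windows. Among the pathway lists described further on, the same letters occurred in the promoters of 5 of 14 ATF4 axis genes, 5 of 21 other amino acid transporters, 2 of 13 other amino acid synthesis genes, 1 of 12 other folate and glycine enzymes, 0 of 13 genes of the eIF2 kinases and their partners and 0 of 22 genes of the sestrins and amino acid sensing.

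Calcitonin-lineage markers were present. Of 10 C cell markers on the chip, 9 were detected on all 6 arrays, among them CALCA, RET and CHGA, and the follicular markers TG, TSHR, SLC5A5 and PAX8 were detected on none. Of the fibroblast, immune and endothelial markers, only CD14 was detected on all 6 arrays. The summed C cell marker level, on the log2 scale, was 15.91 to 16.05 in untreated cells, 15.55 to 15.58 with Y15 and 16.11 to 16.12 with PF04554878. The mean intensity above that of undetected probes was 424.6 and 357.2 without treatment, 171.9 and 183.1 after Y15 and 255.5 and 245.4 after PF04554878, a ratio to untreated of 0.454 and 0.641. Values below are log2 intensities after quantile normalization, which gives every array the same distribution, so a change is a change relative to the other genes. Scaling each array to the median of all probes instead moved the median gene to -0.78 with Y15 and -0.59 with PF04554878, from -0.05 and -0.07 under quantile normalization. The median of all probes lay near that of undetected probes, at 129.8 against 114.5 on untreated replicate 1 and 99.5 against 91.1 on Y15 replicate 1. Scaling to the median of detected probes, chosen after seeing the data, put the median gene at 0.02 and 0.17. Median scaling without further words means scaling over all probes.

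The first question was which of the 10 genes differed between treated and untreated cells. With Y15, 7 of the 10 genes rose and 1 fell under quantile normalization, whereas with median scaling 2 were higher and 5 lower. Scaling to the median of detected probes gave 5 higher and 1 lower, beside 3884 and 3340 of all genes. SLC3A2 rose 3.89-fold, SESN2 2.67-fold and ASNS 2.53-fold. PSPH fell to 0.689 of its untreated level. Over all 11388 genes, 16.7% were called higher and 21.5% lower with Y15 (1904 and 2449 genes; 384 and 9070 with median scaling). A gene was called at an adjusted p below 0.05 and a change of at least 1.2-fold, by limma with Benjamini-Hochberg adjustment over all genes tested, and the adjusted p-values that follow are from that fit. The median change of the 10 genes was 0.77, beside -0.05 for all genes. The 10 genes were chosen with earlier results of these data known, so such contrasts with all genes are descriptions and not tests.

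With PF04554878, 6 of the 10 genes rose and 2 fell, and with median scaling 4 were higher and 4 lower. Scaling to the median of detected probes gave 6 higher and 1 lower, beside 5003 and 3358 of all genes. ASNS rose 4.37-fold, STC2 3.58-fold, PSAT1 3.46-fold and SESN2 3.37-fold. Over all genes, 27.3% were called higher and 35.1% lower (3105 and 3999 genes; 949 and 7563 with median scaling). The median change of the 10 genes was 0.60, beside -0.07 for all genes. Both comparisons share the untreated arrays. Under quantile normalization the genes that rose with both compounds were ASNS, PHGDH, SLC3A2, STC2 and SESN2, and PSPH was lower with both on its brighter probe. The shares of all genes called higher or lower with both compounds were not counted.

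**Figure D1:**
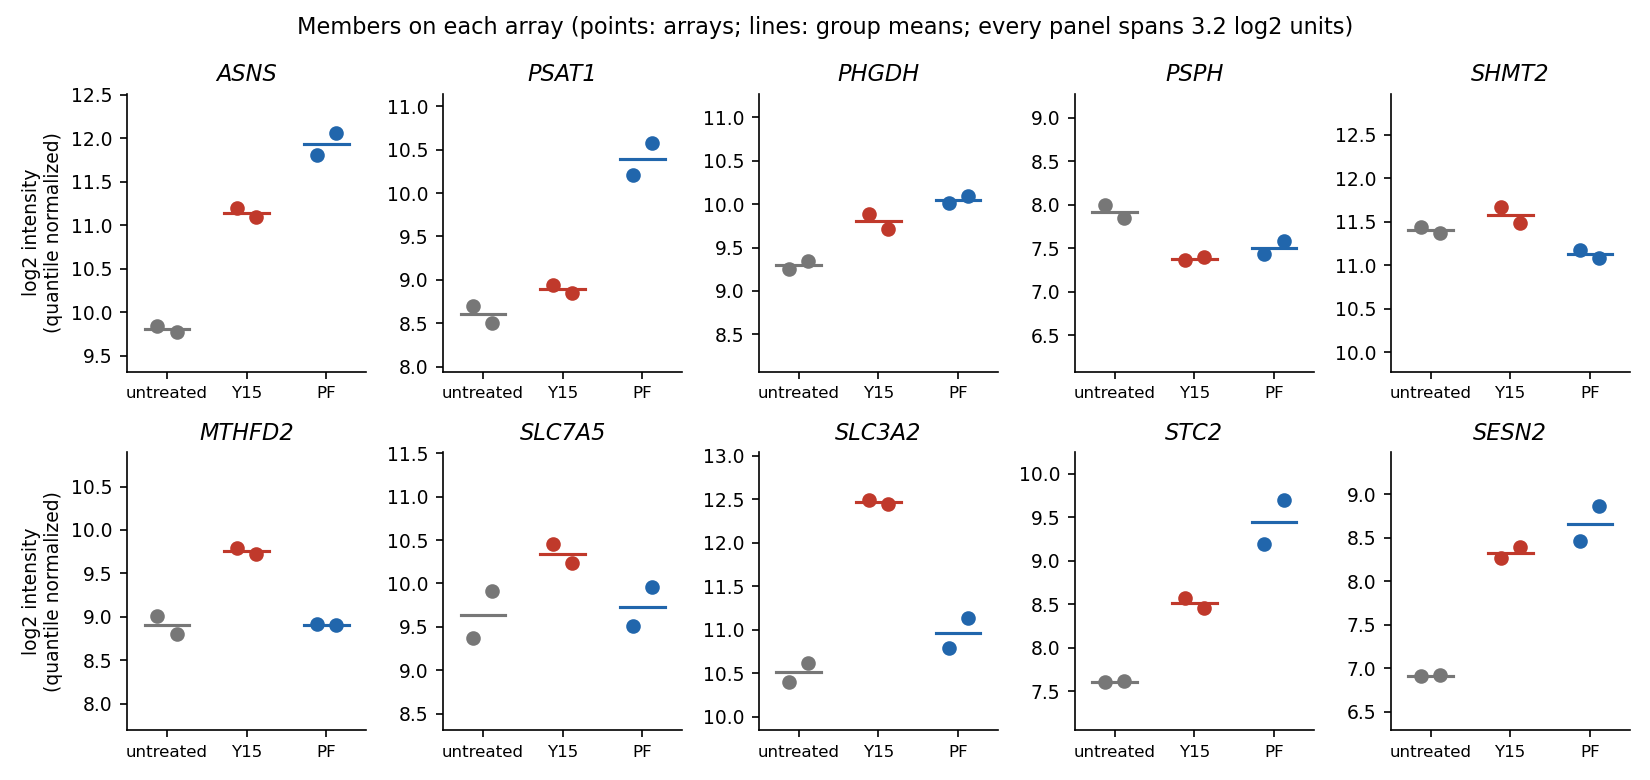
Log2 intensity after quantile normalization (vertical axis) of each of the 10 genes on the 2 untreated, 2 Y15 and 2 PF04554878 (PF) arrays, with points for arrays and lines for group means, and the same span of 3.2 log2 units in every panel. ASNS, STC2 and SESN2 step up from untreated to Y15 to PF04554878, whereas SLC3A2 is highest on the Y15 arrays, at 12.49 and 12.45.

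ASNS, on chromosome 7 (chr7:97851677-97928441), had a log2 intensity of 9.84 and 9.77 in untreated cells, 11.2 and 11.09 with Y15 and 11.81 and 12.06 with PF04554878. The 3 groups did not overlap. The log2 change was 1.34 ± 0.11 (SE, n = 2 arrays per group; adjusted p = 7.2e-05, limma) with Y15 and 2.13 ± 0.11 (adjusted p = 1.4e-06, limma) with PF04554878. Only 0.597% of all genes tested had a larger increase with PF04554878, and 2.1% had a larger increase with Y15. Median scaling over all probes reduced the changes to 0.22 (adjusted p = 0.14, limma) and 1.48. Scaling to the median of detected probes gave 1.03 and 2.23. Before normalization the Y15 arrays read 1437 and 1446 and the untreated arrays 1806 and 1398, so the raw intensity of ASNS did not rise on the dimmer Y15 arrays, while the PF04554878 arrays read 3719 and 4144.

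The enzymes of serine synthesis did not move together. PHGDH, the first enzyme of the pathway (chr1:119711934-119744215), read 9.25 and 9.35 in untreated cells, 9.88 and 9.72 with Y15 and 10.01 and 10.09 with PF04554878. No treated array fell among the untreated ones. PHGDH rose 1.42-fold with Y15 (log2 change 0.50 ± 0.10 SE, adjusted p = 0.0046, limma) and 1.68-fold with PF04554878 (0.75 ± 0.10 SE, adjusted p = 2e-04, limma). The Y15 call was lost without Y15 replicate 1 (adjusted p = 0.051, limma), and median scaling turned both changes, to -0.64 and -0.08.

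PSAT1, which makes the second intermediate of the pathway by transamination (chr9:78297125-78330093), read 8.70 and 8.51 in untreated cells, 8.94 and 8.85 with Y15 and 10.21 and 10.58 with PF04554878. The PF04554878 arrays stood more than 1 log2 unit above all others. The change was 1.79 ± 0.13 (SE, adjusted p = 7.3e-06, limma) with PF04554878 and 0.29 ± 0.13 (SE, adjusted p = 0.12, limma) with Y15, the latter with a 95% interval of -0.01 to 0.59 and -0.85 with median scaling. Annotated pseudogenes number 7 for MTHFD2, 5 for ASNS, 4 for PSAT1, 2 for SLC7A5 and 1 for PSPH, and how far their transcripts reach the probes was not tested. The other PSAT1 probe was not detected on any array.

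PSPH, the phosphatase of the last step to serine (chr7:56011064-56051444), was read by 2 probes that did not agree. On the brighter probe the level was 7.995 and 7.85 in untreated cells, 7.37 and 7.40 with Y15 and 7.44 and 7.58 with PF04554878, and both treated groups lay below the untreated arrays. The change was -0.54 ± 0.10 (SE, adjusted p = 0.0033, limma) with Y15 and -0.41 ± 0.10 (SE, adjusted p = 0.0057, limma) with PF04554878. On the dimmer probe the level was 7.23 and 7.21 in untreated cells, 7.18 and 7.17 with Y15 and 7.64 and 7.67 with PF04554878. There the Y15 change was -0.04 (adjusted p = 0.71, limma over all detected probes) and the PF04554878 change was 0.44 (adjusted p = 0.0019, limma), so the direction with PF04554878 depended on the probe. The mean of both probes gave a PF04554878 change of 0.01.

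Of the mitochondrial one-carbon enzymes, MTHFD2 rose with Y15, where SHMT2 did not pass. MTHFD2, which oxidises methylene-tetrahydrofolate on the way to formate (chr2:74198615-74217565), read 9.02 and 8.81 in untreated cells, 9.79 and 9.72 with Y15 and 8.92 and 8.91 with PF04554878. The Y15 arrays were above both other groups, and the PF04554878 arrays lay between the untreated arrays. MTHFD2 was 1.80-fold higher with Y15 (0.84 ± 0.10 SE, adjusted p = 0.00042, limma). With PF04554878 the change was 0.00 (adjusted p = 0.99, limma) with a 95% interval of -0.23 to 0.23. Median scaling over all probes put these changes at -0.33 and -0.94, and scaling to the median of detected probes at 0.48 and -0.18.

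SHMT2, the mitochondrial serine hydroxymethyltransferase (chr12:57229711-57234935), was among the brightest of the 10 probes, with 11.44 and 11.37 in untreated cells, 11.67 and 11.48 with Y15 and 11.18 and 11.08 with PF04554878. The Y15 arrays lay just above and the PF04554878 arrays just below the untreated ones. The Y15 change of 0.17 ± 0.10 (SE) did not pass (adjusted p = 0.22, limma; 95% interval -0.06 to 0.40; -0.78 with median scaling). SHMT2 fell by 0.27 on the log2 scale with PF04554878 (adjusted p = 0.039, limma), a call that was lost when any 1 of the 4 untreated or PF04554878 arrays was left out (adjusted p up to 0.15, limma).

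SLC3A2, the heavy chain of the large neutral amino acid exchanger (chr11:62856109-62888860), read 10.40 and 10.62 in untreated cells, 12.49 and 12.45 with Y15 and 10.79 and 11.14 with PF04554878. The Y15 arrays were far above both other groups, and the 2 PF04554878 arrays were above the untreated ones. The change was 1.96 ± 0.13 (SE, adjusted p = 2.9e-05, limma) with Y15, and 1.22% of all genes had a larger increase. The raw intensity also rose on the Y15 arrays, to 3642 and 3973 from 2583 and 2363, and with median scaling the Y15 change was 0.98. With PF04554878 the change was 0.45 ± 0.13 (SE, adjusted p = 0.015, limma), which was lost without untreated replicate 1 (0.34, adjusted p = 0.075, limma) or without PF04554878 replicate 2 (0.28, adjusted p = 0.10, limma) and was -0.21 with median scaling.

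SLC7A5, the light chain that forms the transport channel (chr16:87830023-87869507), was the gene of the 10 whose untreated arrays differed most, at 9.38 and 9.91. The Y15 arrays read 10.45 and 10.23, above both untreated arrays, and the PF04554878 arrays read 9.51 and 9.95, which overlapped the untreated ones. The Y15 change was 0.70 ± 0.20 (SE, adjusted p = 0.022, limma). It was lost without untreated replicate 1 (adjusted p = 0.092, limma), without Y15 replicate 1 (adjusted p = 0.17, limma) and without Y15 replicate 2 (adjusted p = 0.077, limma), and it was -0.43 with median scaling. With PF04554878 the change was 0.09 with a 95% interval of -0.36 to 0.54 (adjusted p = 0.70, limma; -0.74 with median scaling). The 95% interval of the Y15 change was 0.25 to 1.14 for SLC7A5 and 1.66 to 2.26 for the brighter SLC3A2 probe, whose dimmer probe gave 1.36, and the difference between the chains was not tested.

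STC2 and SESN2 rose with both compounds, although with median scaling over all probes the Y15 change of STC2 was near 0. STC2, a secreted inhibitor of growth factor-releasing proteolysis (chr5:173314723-173328414), read 7.60 and 7.62 in untreated cells, 8.57 and 8.45 with Y15 and 9.19 and 9.70 with PF04554878, with no overlap between groups. The change was 0.90 ± 0.15 (SE, adjusted p = 0.0023, limma) with Y15 and 1.84 ± 0.15 (SE, adjusted p = 1.3e-05, limma) with PF04554878. Median scaling over all probes reduced them to 0.01 (adjusted p = 0.96, limma) and 1.16. Scaling to the median of detected probes gave 0.82 and 1.92. Its paralogue STC1 went the other way under quantile normalization, by -0.28 with Y15 (0.01 when arrays were scaled to the median of detected probes). STC1 was not detected on either PF04554878 array, where it was at least 1.31-fold lower under quantile normalization. That bound was set against the lowest detected signal of each array. The fitted PF04554878 change was -0.57 (adjusted p = 0.00051, limma). It was -0.22 and not called when arrays were scaled to the median of detected probes.

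SESN2 (chr1:28259518-28282491) was the dimmest of the 10 in untreated cells, at 6.91 and 6.92, and its detection p was 0.0117 and 0.00779 there, so that only 1 of the 2 untreated arrays detected it at 0.01. It read 8.27 and 8.40 with Y15 and 8.46 and 8.87 with PF04554878, and every treated array was more than 1 log2 unit above the untreated ones. The change was 1.42 ± 0.13 (SE, adjusted p = 0.00014, limma) with Y15 and 1.75 ± 0.13 (SE, adjusted p = 8.4e-06, limma) with PF04554878. With background subtraction by the neqc method, which stretches dim signals, these changes were 3.06 and 3.50, and with median scaling 0.97 and 1.43. Before normalization the SESN2 intensities were 144.8 and 139.2 untreated, 204.5 and 230.0 with Y15 and 293.5 and 394.4 with PF04554878. The rise of SESN2 was thus present in the raw signal of all 4 treated arrays. Other genes called higher with Y15 were lower in raw signal on the dimmer Y15 arrays. STC2 read 242.4 and 238.7 there against 323.3 and 291.1 untreated, and MTHFD2 539.8 and 558.6 against 1046.9 and 745.1. PHGDH read 574.5 and 557.7 against 1216.4 and 1058.9, and SLC7A5 849.3 and 790.7 against 1326.4 and 1520.1.

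**Figure D2:**
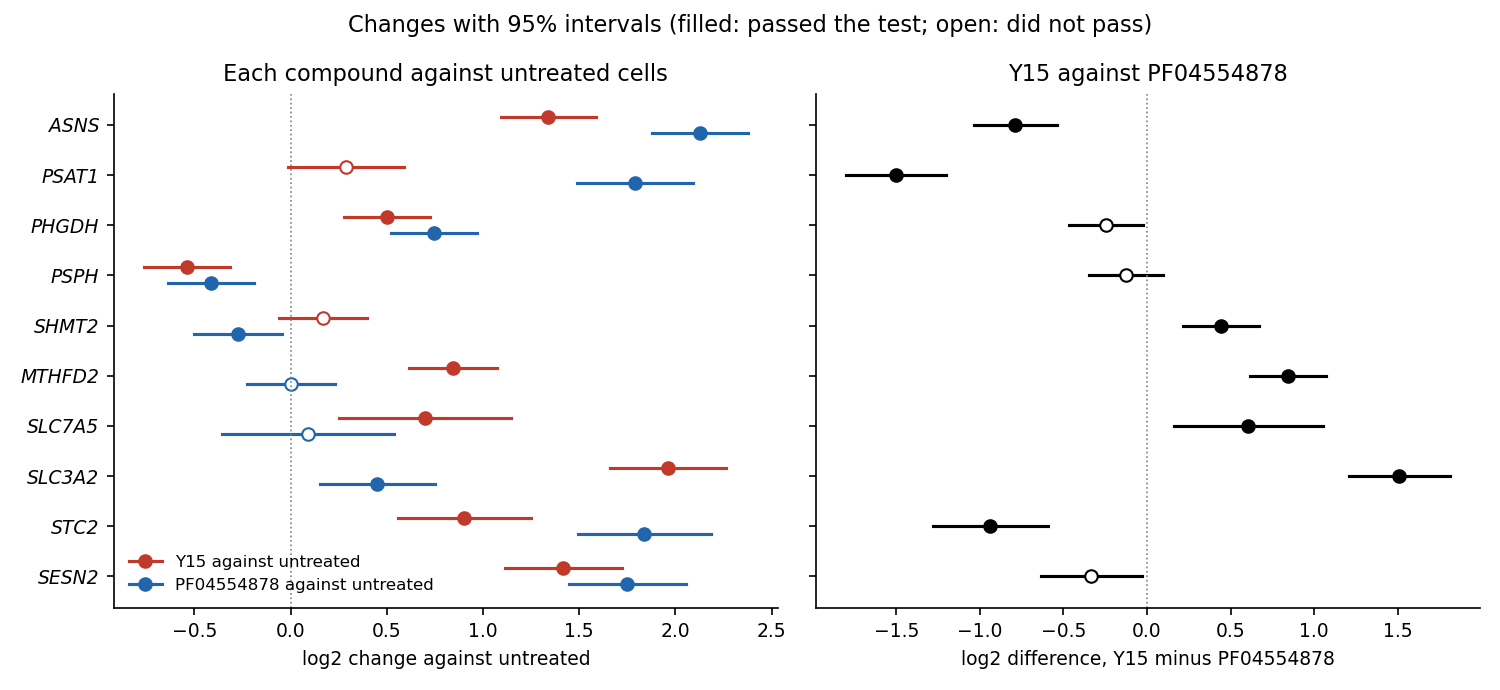
Log2 change of each of the 10 genes with its 95% interval (horizontal axis), on the left for Y15 and PF04554878 against untreated cells and on the right for Y15 minus PF04554878, where filled points passed the test and open points did not. Under quantile normalization SLC3A2 (1.51) and MTHFD2 (0.84) lie on the Y15 side and PSAT1 (-1.50), STC2 (-0.94) and ASNS (-0.79) on the PF04554878 side.

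The spread between duplicate arrays differed by group. The median gap between duplicates was 0.12 in untreated cells, 0.11 with Y15 and 0.30 with PF04554878, beside 0.10, 0.09 and 0.12 over all genes tested. The PF04554878 gaps were thus wider for these genes than for the median gene. The widest was 0.51, for STC2, and in 8 of the 10 genes PF04554878 replicate 2 was the higher array, SHMT2 and MTHFD2 being the exceptions. The share of all genes with replicate 2 higher was not counted, so this is not read as particular to the 10 genes.

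The compounds were then compared directly, at the same dose and time. An equal dose is not read as an equal effect on the cells, because viability of these plates was not given. Y15 and PF04554878 are not analogs, and 1 pair of compounds was compared. Under quantile normalization 4 of the 10 genes were higher with Y15 than with PF04554878, 3 were lower and 3 did not pass, while with either median scaling 2 were higher and 5 lower. Over all genes, 33% were called higher and 27.7% lower (3763 and 3160 genes), and the median change of the 10 genes was -0.19 beside 0.05 for all genes. The shares of these genes called in either direction were thus near those of all genes under quantile normalization, and with median scaling over all probes the shares of all genes were 20.7% higher and 28.6% lower (2362 and 3262 genes).

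SLC3A2 was 2.85-fold higher with Y15 than with PF04554878 on its brighter probe (1.51 ± 0.13 SE, adjusted p = 2e-05, limma; 0.38 on its dimmer probe), and MTHFD2 was 1.79-fold higher (0.84 ± 0.10 SE, adjusted p = 0.00011, limma). For both, the Y15 arrays were above the PF04554878 arrays, and both calls were kept with each array left out in turn. SHMT2 was 1.36-fold higher (0.44 ± 0.10 SE, adjusted p = 0.0045, limma), a call that ended with median scaling over all probes (0.03) or over detected probes (0.08). SLC7A5 was 1.52-fold higher (0.61 ± 0.20 SE, adjusted p = 0.024, limma), a call that ended without Y15 replicate 1 (adjusted p = 0.17), without Y15 replicate 2 (adjusted p = 0.063), without PF04554878 replicate 1 (adjusted p = 0.19, limma) and with median scaling (adjusted p = 0.17).

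PSAT1 was lower with Y15, at 0.353 of its PF04554878 level (-1.50 ± 0.13 SE, adjusted p = 2.1e-05, limma). STC2 was at 0.522 (-0.94 ± 0.15 SE, adjusted p = 7e-04, limma) and ASNS at 0.579 (-0.79 ± 0.11 SE, adjusted p = 0.00028, limma). These 3 differences kept their direction and their call under every alternative scaling and with each array left out. PHGDH differed by -0.25 with an interval of -0.47 to -0.02 (adjusted p = 0.055, limma), and it passed with median scaling (-0.56, adjusted p = 0.0027, limma). SESN2 differed by -0.33 with an interval of -0.64 to -0.03 (adjusted p = 0.055, limma), and it passed with median scaling (-0.46, adjusted p = 0.041, limma), without PF04554878 replicate 1 (-0.54, adjusted p = 0.0066, limma) and without either untreated array (adjusted p = 0.048, limma). PSPH differed by -0.13 with an interval of -0.35 to 0.10 (adjusted p = 0.29, limma), against -0.48 on its dimmer probe (adjusted p = 0.0012, limma).

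Of the 10 genes, 3 had a second detected probe. The dimmer ASNS probe read 8.48 and 8.34 in untreated cells, 9.64 and 9.70 with Y15 and 10.1 and 10.63 with PF04554878. Its changes of 1.27 (adjusted p = 0.00072, limma) and 1.96 (adjusted p = 2e-05, limma) had the direction and order of the brighter probe. The dimmer SLC3A2 probe read 7.27 and 7.34, then 8.74 and 8.60, then 8.16 and 8.42 in the same order of groups. Its changes were 1.36 with Y15 (adjusted p = 1e-04, limma) and 0.98 with PF04554878 (adjusted p = 0.00011, limma), so that its difference between the compounds was 0.38 (adjusted p = 0.017, limma) where the brighter probe gave 1.51. Which transcripts of SLC3A2 each probe reads was not resolved here.

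**Figure D3:**
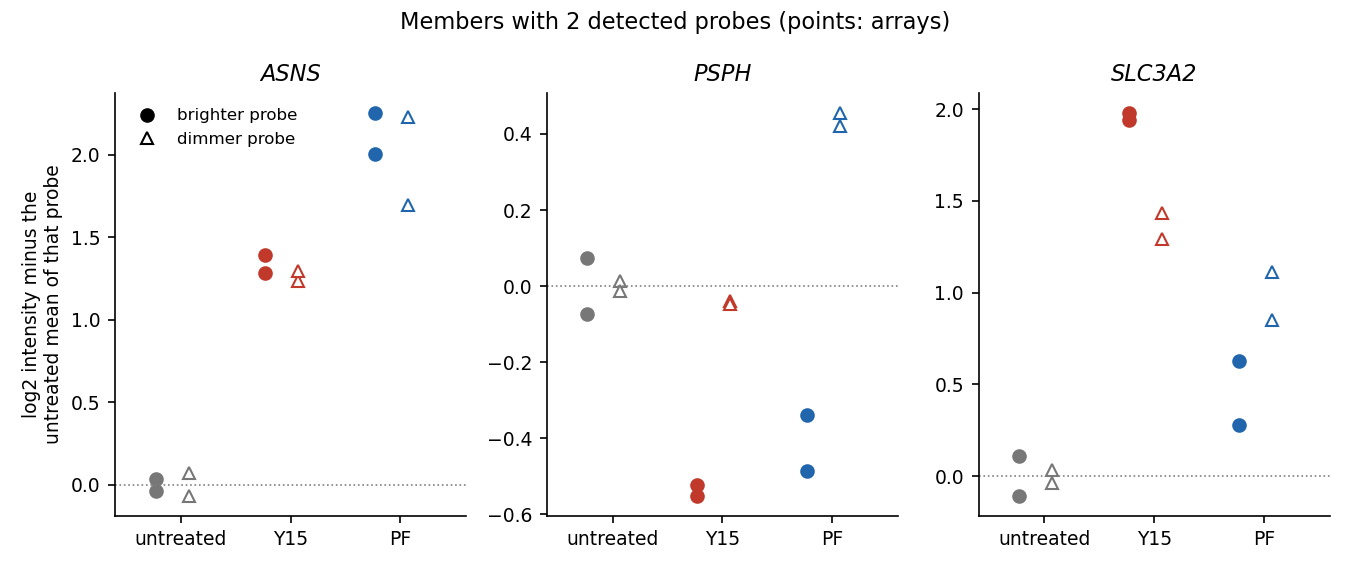
Log2 intensity of the brighter (circles) and the dimmer (triangles) detected probe of ASNS, PSPH and SLC3A2 on each array, minus the untreated mean of that probe (vertical axis, scaled per panel), for untreated, Y15 and PF04554878 (PF) arrays. Both ASNS probes rise with both compounds, the PSPH probes part with PF04554878 (-0.41 against 0.44), and the SLC3A2 probes differ most with Y15 (1.96 against 1.36).

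The rest of the pathway was read from lists of related genes, 103 of whose 122 genes were measured. None of these counts was tested as a set, and they stand beside the shares of all genes given above. Among 14 other measured genes of amino acid synthesis, 4 rose and 0 fell with Y15, and 4 rose and 3 fell with PF04554878 (median changes 0.05 and 0.12), whereas with median scaling 0 were higher and 13 and 11 lower. With Y15 the genes were PYCR1 (0.50), the last enzyme of proline synthesis, ASS1 (0.44), the enzyme that joins citrulline to aspartate, OAT (0.43) and GOT2 (0.31). With PF04554878 they were GLUD1 (0.81), a mitochondrial glutamate dehydrogenase, ASS1 (0.65), CBS (0.53) and PYCR1 (0.31), and BCAT2 (-1.12), the mitochondrial branched-chain aminotransferase, PYCR3 (-0.52) and ALDH18A1 (-0.35) fell. With median scaling PYCR1 read -0.64 with Y15 and -0.56 with PF04554878, and ASS1 -0.49 and -0.17. Of the 14 genes, scaling to the median of detected probes called 3 higher and 2 lower with Y15. It called 5 higher and 3 lower with PF04554878.

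The other enzymes of folate and glycine metabolism mostly fell, unlike MTHFD2 with Y15. Of 11 measured, 0 rose and 7 fell with Y15, and 0 rose and 7 fell with PF04554878 (median changes -0.46 and -0.50). With median scaling all 11 were lower with either compound. Scaling to the median of detected probes called 1 higher and 7 lower with Y15, and 1 higher and 6 lower with PF04554878. TYMS, the enzyme of thymidylate synthesis, fell by 1.51 with Y15 and by 1.22 with PF04554878 on the log2 scale. GCSH, a carrier protein of the glycine cleavage system, changed by -1.10 and -0.74, and GART, a purine synthesis enzyme that uses formyl-folate, by -0.48 and -1.35. SHMT1, the cytosolic counterpart of SHMT2 and named after its values were seen, was not detected on the Y15 arrays. It was there at least 1.37-fold lower under quantile normalization, where the fitted change was -0.51 (adjusted p = 0.0099, limma). The Y15 change was -0.98 with median scaling and -0.17 (adjusted p = 0.2, limma) with scaling to the median of detected probes.

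Among 21 other measured amino acid transporters, 1 rose and 5 fell with Y15, and 6 rose and 4 fell with PF04554878 (median changes -0.07 and -0.11). Median scaling gave 0 higher and 16 lower and then 3 higher and 15 lower. Scaling to the median of detected probes gave 6 higher and 6 lower and then 10 higher and 3 lower. SLC1A5, a glutamine transporter, was the 1 that rose with Y15 under quantile normalization (0.46, or -0.69 with median scaling). It fell with PF04554878 (-1.23, direct difference 1.69, adjusted p = 3.7e-06, limma). SLC7A1, a cationic amino acid transporter, rose with PF04554878 (1.29) and read -0.07 with Y15. SLC38A10 fell with Y15 (-1.22) and read 0.23 with PF04554878. SLC38A2, a carrier of small neutral amino acids, moved in opposite directions under each scaling tried, at -0.45 with Y15 and 0.97 with PF04554878 under quantile normalization and -1.50 and 0.38 with median scaling. Of the other light chains known to pair with SLC3A2, looked at after their values were seen, SLC7A6 read -0.07 with Y15 and 0.31 with PF04554878 (-0.41 with median scaling) and SLC7A8 -0.13 and -0.02, while SLC7A11 was not detected on enough arrays to be tested.

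The ATF4 axis was read next. Of its 16 measured genes, 12 rose and 0 fell with Y15, and 10 rose and 2 fell with PF04554878. The median changes were 1.28 and 0.40. With median scaling over all probes 9 were higher and 3 lower with Y15, and 3 higher and 5 lower with PF04554878. Scaling to the median of detected probes gave 14 higher and 0 lower with Y15, and 13 higher and 2 lower with PF04554878. ATF3, a stress-induced transcription factor, read 7.43 and 7.22 in untreated cells, 11.34 and 11.49 with Y15 and 8.37 and 8.52 with PF04554878, a change of 4.10 and 1.12. PPP1R15A, which directs the dephosphorylation of eIF2, changed by 3.41 and 0.59 (-0.32 with PF04554878 under median scaling). DDIT3 (CHOP) read 8.57 and 8.36, then 11.72 and 11.70, then 7.78 and 7.73, a rise of 3.24 with Y15 and a fall with PF04554878 (-0.71), where ATF5 also fell (-0.71).

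ATF4 itself, named after its values were seen, rose by 0.67 with Y15 and 0.40 with PF04554878 on the log2 scale, and by 0.41 and 0.34 with median scaling. CEBPG, a C/EBP partner of ATF4, rose by 1.10 and 1.27 (-0.070 with Y15 under median scaling), and it was among the 4 of the 16 genes that did not differ between the compounds past the threshold under quantile normalization (-0.17, adjusted p = 0.15, limma), though it did with median scaling (-0.53, adjusted p = 0.0057, limma). CHAC1, a glutathione-degrading enzyme, was not detected in untreated cells. Under quantile normalization it was at least 2.63-fold higher with Y15 and at least 1.18-fold higher with PF04554878. Its fitted log2 changes were 1.47 (adjusted p = 1.4e-05, limma) and 0.32 (adjusted p = 0.01, limma). With median scaling they were 1.06 (adjusted p = 5e-05, limma) and 0.19 (adjusted p = 0.1, limma). Between the compounds, 11 of the 16 were higher with Y15 and 1 was lower (9 and 2 with median scaling). ASNS, PSAT1 and STC2 were thus lower with Y15 than with PF04554878 while most of the ATF4 axis list was higher.

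**Figure D4:**
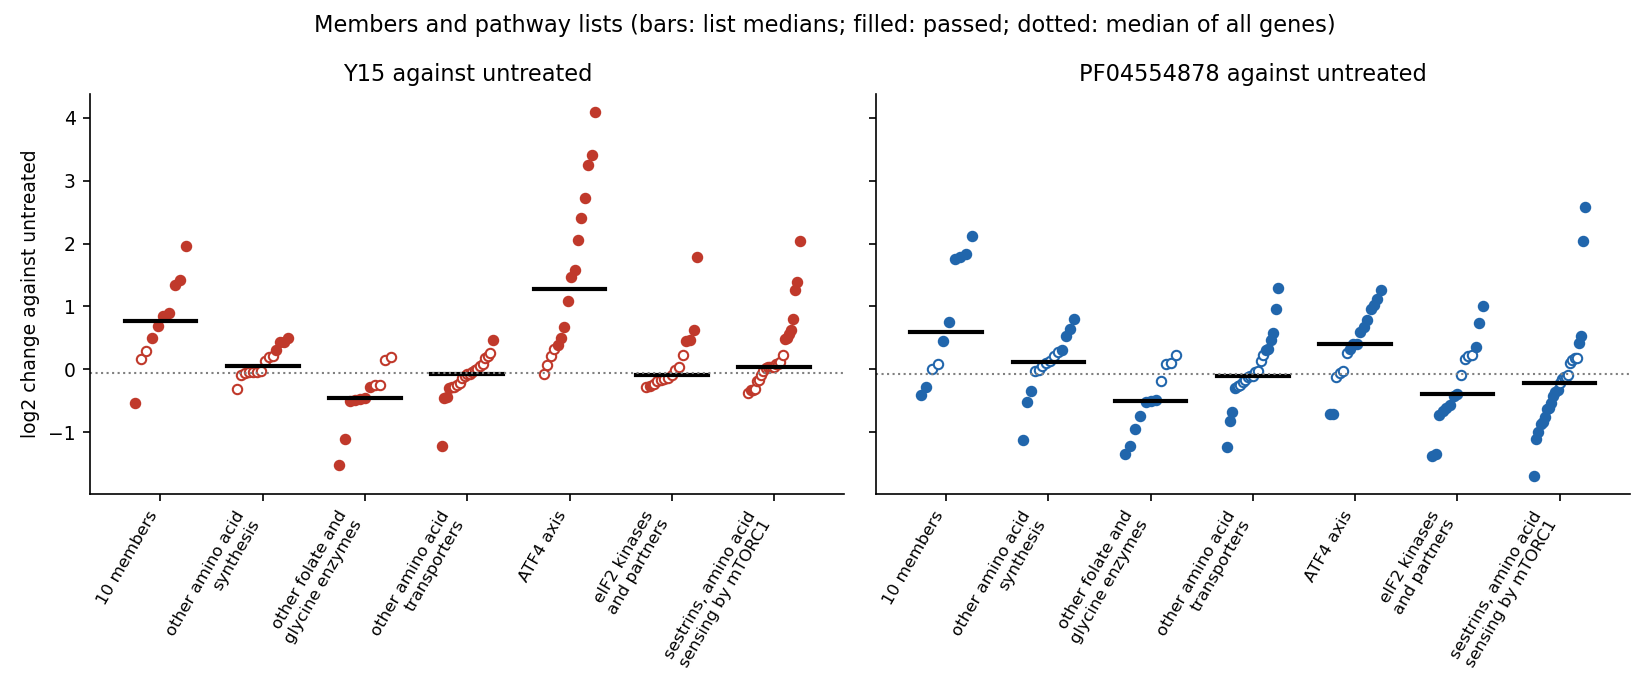
Log2 change against untreated cells (vertical axis) of the 10 genes and of each measured gene of 6 pathway lists, with Y15 on the left and PF04554878 on the right, where filled points passed the test, bars are list medians and the dotted line is the median of all genes. The ATF4 axis list reaches 4.10 with Y15 and 1.27 with PF04554878, and the medians of the other folate and glycine enzymes lie at -0.46 and -0.50, all under quantile normalization.

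Of 15 eIF2 kinases and partners, 4 rose and 1 fell with Y15, and 3 rose and 8 fell with PF04554878 (median changes -0.10 and -0.39). Median scaling gave 1 higher and 13 lower and then 1 higher and 11 lower. Scaling to the median of detected probes gave 5 higher and 6 lower and then 5 higher and 8 lower. EIF2AK4 (GCN2), the kinase that senses uncharged tRNA, rose with Y15 (1.78) and read 0.21 with PF04554878 (-0.59 with median scaling). EIF2AK3 (PERK), the kinase of the endoplasmic reticulum, rose with PF04554878 (1.01) and read -0.14 with Y15. Both differed directly between the compounds, EIF2AK4 by 1.57 (adjusted p = 4.6e-05, limma) and EIF2AK3 by -1.15 (adjusted p = 2.2e-05, limma). EIF2B5, a subunit of the eIF2 exchange factor, rose with Y15 (0.63, or -0.52 with median scaling), and EIF2B4 (-1.34) and ABCF1 (-1.37) fell with PF04554878.

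Among 25 genes of the sestrins and of amino acid sensing by mTORC1, 8 rose and 2 fell with Y15, and 4 rose and 12 fell with PF04554878 (median changes 0.04 and -0.21). With median scaling 2 were higher with either compound and 19 and 21 lower. Scaling to the median of detected probes gave 10 higher and 6 lower and then 7 higher and 12 lower. The 4 that rose with PF04554878 under quantile normalization were SESN1 (2.59), RRAGC (2.04), FLCN (0.53) and SESN3 (0.42). SESN1, a sestrin known as a p53 target, changed by 0.80 with Y15 (-0.33 with median scaling), and SESN3 by 0.63. FLCN, which acts on RRAGC and RRAGD at the lysosome, rose by 2.03 with Y15 on the log2 scale and RRAGC, a Rag GTPase, by 1.40. All 3 sestrins were thus called higher with both compounds under quantile normalization, whereas with median scaling SESN3 read -0.23 with Y15 and -0.32 with PF04554878 and SESN1 was negative with Y15. RRAGA fell with PF04554878 (-1.69) and read 0.03 with Y15.

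Profiles over the 6 arrays, each centred on its own mean, were compared with that of ASNS by Euclidean distance, as a description over 6 arrays of 3 groups. The nearest of all genes tested were RRAGC (distance 0.147), GRPEL2 (0.176), KLHL24 (0.344), H2BC21 (0.371) and USPL1 (0.378). Of the other 9 genes, STC2 came at rank 17 (0.485), SESN2 at rank 19 (0.530) and PSAT1 at rank 196 (1.08), followed by PHGDH at rank 570. SLC7A5, MTHFD2, SLC3A2, SHMT2 and PSPH came at ranks 4357 to 8423. The profiles were centred but not scaled, so the distance also reflects the size of a change. By Pearson correlation with ASNS, PHGDH (0.9868) stood beside STC2 (0.981) and SESN2 (0.9749), and above PSAT1 (0.8666). The correlations of SLC7A5, MTHFD2, SLC3A2, SHMT2 and PSPH lay between -0.7774 (PSPH) and 0.3649 (SLC3A2).

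**Figure D5:**
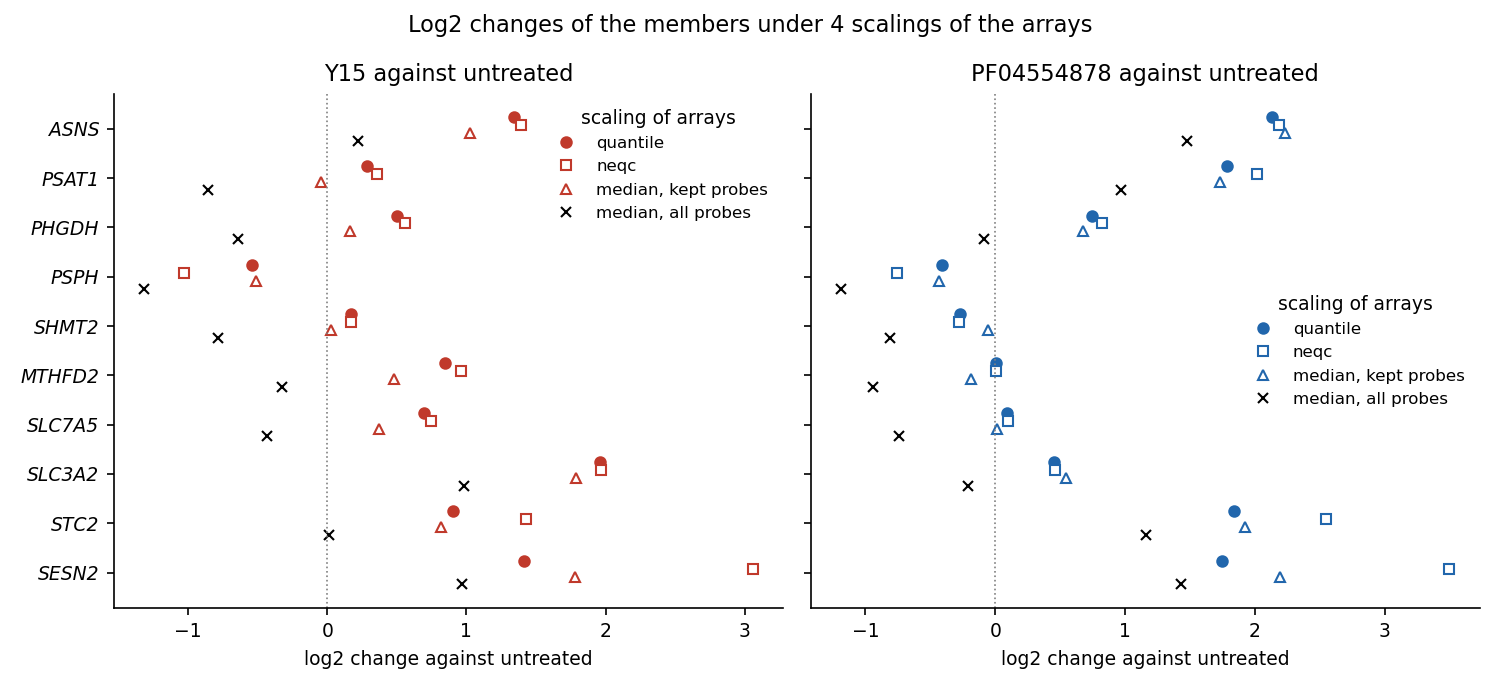
Log2 change of the 10 genes against untreated cells (horizontal axis) with Y15 on the left and PF04554878 on the right, under quantile normalization, neqc, scaling to the median of detected probes and scaling to the median of all probes. SLC3A2 stays between 0.98 and 1.97 with Y15 and ASNS between 1.48 and 2.23 with PF04554878, whereas median scaling over all probes puts PHGDH at -0.64 and -0.08 and MTHFD2 at -0.33 and -0.94.

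Relative to the median gene of the same scaling, ASNS was 1.39 higher with Y15 under quantile normalization and 1.004 higher under median scaling, and 2.20 and 2.07 higher with PF04554878. SLC3A2 with Y15 was 2.01 and 1.77 higher. STC2 was 0.95 and 0.79 higher with Y15 and 1.91 and 1.75 higher with PF04554878, and SESN2 1.47 and 1.76 with Y15 and 1.82 and 2.02 with PF04554878. PSPH on its brighter probe was lower than the median gene in all 4 cases, by -0.49 and -0.53 with Y15 and -0.34 and -0.60 with PF04554878. Other differences from the median gene shrank or turned, except that of SHMT2 with PF04554878 (-0.20 and -0.22). With Y15, PSAT1 went from 0.34 to -0.070, PHGDH from 0.55 to 0.14 and SHMT2 from 0.22 to 0.0014 between quantile normalization and median scaling. With PF04554878, MTHFD2 went from 0.075 to -0.35 and SLC7A5 from 0.16 to -0.15. The part that the lower array signal after treatment had in these changes was not tested.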

How the data were processed

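Microarray data from 6 arrays of TT cells were analysed, in 3 groups of 2 taken from the labels. The authors deposited bead intensities that were not normalized, with detection p-values, from GenomeStudio, and a table of log2 values. The deposited log2 values differed by at most 5e-09 from log2 and quantile normalization of the deposited intensities. The methods name a HumanRef-8 chip, whereas 47323 probes were listed, 47317 of them with values. Gene names came from the platform annotation, with 30111 probes of 1 gene. Probes with detection p below 0.01 on at least 2 arrays were kept (18876, of which 14939 had 1 gene), and each gene was read by its brightest kept probe. The fit was made with limma 3.58.1 in R 4.3.3 on all 6 arrays (3 residual and 5.54 prior degrees of freedom), two-sided, with Benjamini-Hochberg adjustment over 11388 genes. Calls required an adjusted p below 0.05 and a 1.2-fold change. The script was tested on simulated data. The number of arrays limits the precision. The 10 genes and all lists were chosen with earlier results of these data known. Named were all 10 genes, the 2 genes of each list with the largest change per compound, genes in counts of 5 or fewer, and the 5 profiles nearest to ASNS. For a probe undetected in a group, the bound sets its level at the lowest detected signal of each array. Alternatives were nec, neqc, median scaling, the deposited values, other detection filters, the mean of probes, a trended prior, 2 groups alone, a replicate block, single arrays left out and an unadjusted threshold.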

Additional observations from a re-analysis of the deposited data

How the results depend on the processing

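Of 516 values of the 10 genes under the alternatives, 464 kept their direction and side of the threshold, not counting the deposited log2 values, which are the same numbers. The trended prior, 2 groups alone, the replicate block and the unadjusted threshold reuse the same log2 changes, so only the call could differ. The same holds where the array left out was of a group not compared. Quantile normalization assumes equal total signal, and arrays differed in brightness. With median scaling, 9454 of all genes passed with Y15, and of the 10 genes 2 were higher and 5 lower with Y15, 4 were lower with PF04554878, and 2 were higher and 5 lower between the compounds. Values that turned with Y15 included PSAT1 -0.85, PHGDH -0.64, SHMT2 -0.78, MTHFD2 -0.33, SLC7A5 -0.43, PYCR1 -0.64, ASS1 -0.49, BCAT2 -1.005, GLUD1 -0.92, SLC1A5 -0.69, CEBPG -0.070, EIF2B5 -0.52, ABCF1 -0.60, SESN1 -0.33, OAT -0.73, GOT2 -0.67, SESN3 -0.23 and RRAGA -1.04. With PF04554878 they included PHGDH -0.085, MTHFD2 -0.94, SLC7A5 -0.74, SLC3A2 -0.21, PYCR1 -0.56, ASS1 -0.17, SLC38A10 -0.67, PPP1R15A -0.32, EIF2AK4 -0.59, EIF2B5 -0.79, CBS -0.31, SESN3 -0.32 and SLC7A6 -0.41. Scaling to the median of detected probes, chosen after seeing the data, gave 7224 genes with Y15 (3884 higher), 5003 genes higher and 1 of the 10 lower with PF04554878, 2 higher and 5 lower between the compounds, and STC1 0.0083 with Y15; the PHGDH (0.16, adjusted p = 0.15, limma) and SLC7A5 (0.37, adjusted p = 0.085, limma) calls with Y15 ended. Of the 10 genes, 1 was lower with PF04554878 with nec, neqc, the mean of kept probes and the trended prior. PSPH with PF04554878 was 0.012 by the mean of probes and 0.44 by its dimmer probe, the latter chosen after seeing the data.

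Leaving out 1 array gave 2246 to 4308 genes with Y15, the lower values being 2246 without Y15 replicate 1 and 2380 without Y15 replicate 2, and 1 to 2 of the 10 genes lower with PF04554878. Same-numbered arrays deviated with correlations of -0.26, 0.20 and -0.10, so the numbers were not treated as pairs. With a replicate block, 4221, 7105 and 6918 genes passed with Y15, with PF04554878 and between the compounds, and SESN2 passed between the compounds (adjusted p = 0.038, limma). A crossed replicate block, added after seeing the data, gave 4734, 7292 and 7129. The cause of these changes was not tested.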
